A study of Mus musculus with 127 samples.

Results

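The 10 nuclei of a sequential genome architecture mapping study were divided by how evenly their located windows were split between a pair of files. For each nucleus the rows of file 1 were divided by the rows of file 0. Nuclei with a ratio of 2 or more are called lopsided and numbered 4 of 10 (Cell18, Cell19, Cell20 and Cell38), and those with a ratio between 0.5 and 2 are called balanced and numbered 6 of 10 (Cell17, Cell25, Cell26, Cell27, Cell28 and Cell39). The groups were thus selected on a measured value, and every comparison of file sizes between them is a description without a test. The last lopsided nucleus above the limit was Cell18 at 2.57, and the nearest balanced nucleus was Cell25 at 1.18, so no nucleus lay close to the limit of 2.

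Sequential genome architecture mapping sections a single nucleus into serial thin slices (nuclear profiles) and sequences the DNA in every slice separately. All nuclei came from 1 untreated material, F123 mouse embryonic stem cells of the strain CAST x 129, grown with LIF on embryonic fibroblast feeders that were removed by passaging before use, and the groups share genotype, strain and treatment. The lopsided nuclei gave 50 profiles and the balanced nuclei 72, together 122 of 127 samples, and the other 5 were 1 negative and 4 positive controls without positions. Title prefixes placed Cell17, Cell18, Cell19 and Cell20 in batch B16F and the other 6 nuclei in batch B18F, so 3 of 4 lopsided nuclei but 1 of 6 balanced nuclei were B16F, and the labels name no separate cultures, so p-values measure only the spread between these nuclei.

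A diploid nucleus holds a maternal and a paternal copy of each autosome, and each copy occupies its own territory. In a hybrid of distant strains such as CAST and 129, sequence variants can in principle tell the copies apart, and neighbouring stretches of 1 copy are expected to stay together along the chromosome. The sources used here do not say what file 0 and file 1 of a nucleus stand for, and no parental name is given to either below. The profiles are of DNA, so no RNA or protein marker of the cell type could be checked.

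Each deposited row is a 10 kb window of the mm10 genome with 1 position along the slicing axis. File 0 and file 1 held 27331 and 70238 rows in Cell18, 29628 and 86568 in Cell19, 21282 and 65551 in Cell20, and 22039 and 76008 in Cell38. The corresponding ratios were 2.57, 2.92, 3.08 and 3.45. In the balanced nuclei file 0 held from 29123 rows (Cell39) to 87142 (Cell25) and file 1 from 27852 (Cell39) to 102934 (Cell25), with ratios of 1.08 in Cell17, 1.18 in Cell25, 0.958 in Cell26, 1.15 in Cell27, 1.17 in Cell28 and 0.956 in Cell39. Read depth per window is unknown, since rows come without counts.

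**Figure D1:**
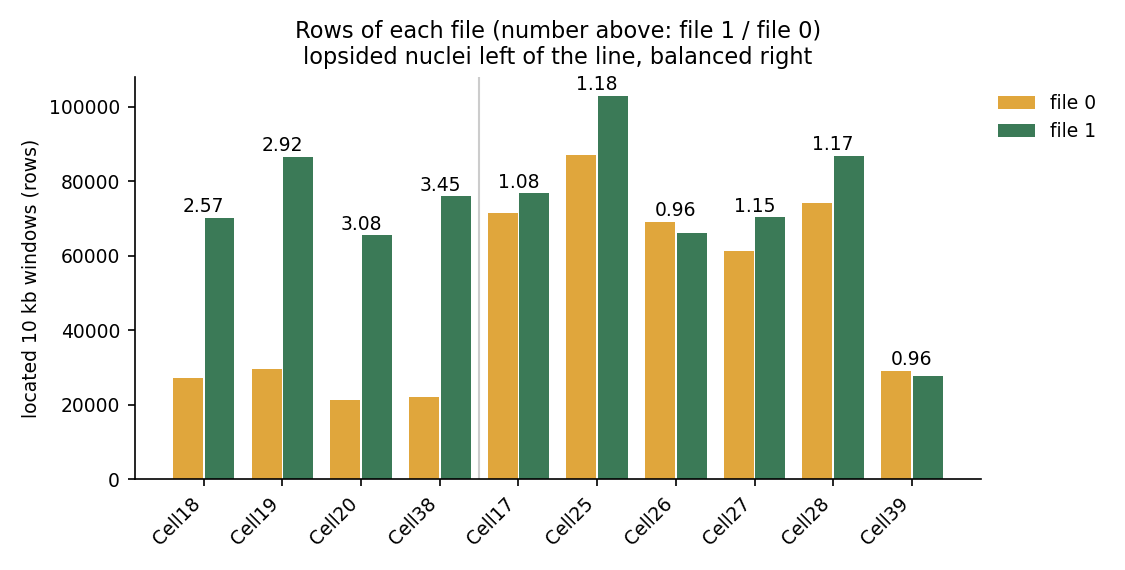
Located 10 kb windows (rows, linear axis from 0) in file 0 and file 1 of each nucleus, with the ratio of file 1 to file 0 above each pair. File 1 of the 4 lopsided nuclei spans 65551 to 86568 rows, inside the balanced range, while their file 0 spans 21282 to 29628 rows and only Cell39 among the balanced nuclei is as low.

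Coverage of file 0 was low in the lopsided nuclei, while that of file 1 lay inside the balanced range. File 0 covered 10.6% of the autosomal windows in Cell18, 11.5% in Cell19, 8.18% in Cell20 and 8.76% in Cell38, or 9.77% ± 1.57 (SD, n = 4). Among the balanced nuclei it covered 27.5% in Cell17, 33.0% in Cell25, 27.2% in Cell26, 23.8% in Cell27, 28.9% in Cell28 and 11.1% in Cell39, or 25.2% ± 7.53 (SD, n = 6). File 1 covered 26.4%, 32.9%, 25.0% and 29.8% in Cell18, Cell19, Cell20 and Cell38, with a mean of 28.6% ± 3.56 (SD, n = 4). The balanced mean for file 1 was 27.7% ± 9.59 (SD, n = 6), with Cell39 the lowest at 10.7% and Cell25 the highest at 39.0%. Cell39, the sparsest nucleus of all, was balanced, and its file 0 covered less than that of Cell19.

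The excess of file 1 ran through nearly the whole genome of the lopsided nuclei. The ratio reached 2 on 16 of 19 autosomes in Cell18, 17 in Cell19 and all 19 in Cell20 and in Cell38, which is 71 of 76 autosomes over the 4 nuclei. No autosome of a balanced nucleus reached 2, and on each of the 19 autosomes the lowest lopsided ratio lay above the highest balanced one. In Cell18 the ratio was highest on chromosome 1 (3.41) and lowest on chromosome 19 (1.65). In Cell19 the extremes were chromosome 4 (4.16) and chromosome 9 (1.85), and in Cell20 chromosome 1 (3.504) and chromosome 5 (2.55). In Cell38 chromosome 19 was the highest (5.44) and chromosome 7 the lowest (2.59). The chromosomes at the extremes were therefore not the same in all 4 nuclei, and chromosome 19 was the lowest in Cell18 and the highest in Cell38. Chromosome 1 was high in all 4, from 3.41 to 3.91, and its lowest lopsided ratio was above that of every other autosome. This was not particular to the lopsided nuclei. In the balanced nuclei chromosome 1 ran from 1.14 to 1.65, and its lowest ratio there was likewise above that of every other autosome.

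**Figure D2:**
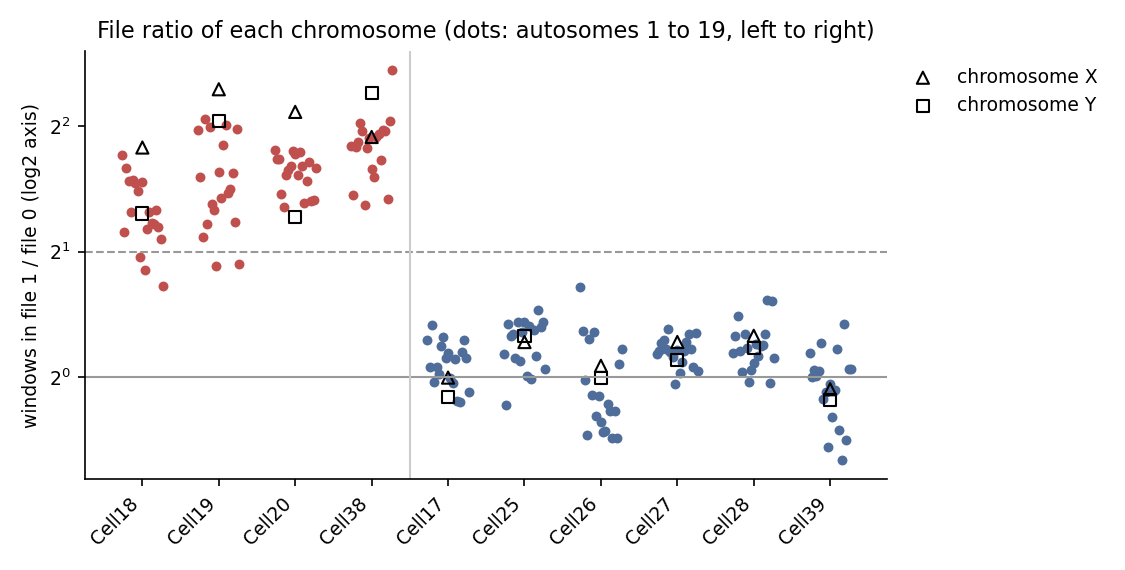
Ratio of file 1 to file 0 windows (log2 axis) for each autosome (dots), X (triangle) and Y (square) of each nucleus, with lines at 1 and 2. The lopsided nuclei span 1.65 to 5.44 on the autosomes and no autosome of a balanced nucleus exceeds 1.65.

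Balanced nuclei also had chromosomes that leaned to 1 file. Cell26 ran from 0.714 on chromosome 17 to 1.65 on chromosome 1, and Cell39 from 0.633 on chromosome 15 to 1.34 on chromosome 16. Cell17 ran from 0.872 (chromosome 15) to 1.33 (chromosome 3), Cell25 from 0.859 (chromosome 2) to 1.45 (chromosome 16) and Cell28 from 0.966 (chromosome 17) to 1.53 (chromosome 16). Cell27 was the most even, from 0.961 on chromosome 9 to 1.30 on chromosome 6. The SD of the log2 ratio over the 19 autosomes was 0.28 in Cell18, 0.37 in Cell19, 0.15 in Cell20 and 0.25 in Cell38. It ran from 0.11 (Cell27) to 0.35 (Cell26) among the balanced nuclei, so Cell19 lay above that range and the other 3 lopsided nuclei inside it. The sex chromosomes followed their nuclei in the file ratio. The X ratio was 3.55 in Cell18, 4.90 in Cell19, 4.32 in Cell20 and 3.77 in Cell38, against 0.936 (Cell39) to 1.26 (Cell28) in the balanced nuclei. On Y it was 2.47, 4.10, 2.43 and 4.81 in the same 4 nuclei and between 0.883 and 1.25 in the balanced ones. X windows listed in both files numbered from 2 (Cell38) to 284 (Cell20) in the lopsided nuclei. In the balanced nuclei they numbered from 18 (Cell26) to 229 (Cell27).

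Coverage by chromosome showed the same shortfall of file 0. In Cell20, file 0 covered from 5.13% of chromosome 9 to 11.6% of chromosome 14, and file 1 covered from 17.9% to 30.5% of those same 2 chromosomes. In Cell18 chromosome 18 was the most covered in both files, at 19.95% and 42.8%, and in Cell19 it was chromosome 5, at 17.7% and 41.2%. In Cell38 chromosome 7 led both files, at 14.998% and 38.8%. A chromosome that was rich in file 0 of a lopsided nucleus was thus the richest in its file 1 as well. The same was seen in the balanced Cell28 (chromosome 14, 47.0% and 56.2%) and Cell39 (chromosome 12, 19.6% and 18.3%), but not in Cell17, Cell25, Cell26 and Cell27, where different chromosomes led the files.

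At the scale of 1 Mb, the 4 lopsided nuclei divided their windows differently. Among bins with at least 10 windows listed in a single file, file 1 held 90% or more in 56.9% of the bins of Cell18, 39.8% of those of Cell19, 50.2% in Cell20 and 41.9% in Cell38. Over all single-file windows file 1 held 78.1%, 84.8%, 86.3% and 83.2% in these nuclei, and file size thus enters these counts. The SD of the share over bins was 31.8, 12.7, 13.8 and 17.2 points. Random division of the windows at the overall shares would give 8.16, 6.80, 7.48 and 6.96 points. In Cell18, however, file 0 held the majority in 20.6% of the bins, against 1.87% in Cell19, 1.81% in Cell20 and 5.66% in Cell38. File 1 held 10% or less in 7.04% of the bins of Cell18, and the share of file 1 lay between these limits in the rest of its bins. Megabases led by file 0 were thus more frequent in Cell18 than in Cell19, Cell20 or Cell38. Among the balanced nuclei Cell26 was the most divided in pieces. In it file 1 held 90% or more of the windows in 21.01% of the bins and 10% or less in 20.7%. The corresponding shares were 20.2% and 15.1% in Cell17, 7.89% and 2.20% in Cell25, and 6.18% and 7.58% in Cell39. They were 3.03% and 0.788% in Cell28, and 1.58% and 0.249% in Cell27. Correlations between nuclei of the share of file 1 in a bin were low. The Spearman correlation of the share across bins had a median of 0.07 over the 6 pairs of lopsided nuclei (from −0.08 to 0.20), −0.02 over the 15 pairs of balanced nuclei and 0.02 over the 24 mixed pairs, all across bins of shared chromosomes and without a test. The highest values were 0.20 for Cell18 with Cell19 and 0.18 for Cell26 with Cell38.

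The excess of file 1 was present at nearly every position along the slicing axis. Most positions are whole multiples of a slice step of 0.2, called grid positions here, in an axis unit without a name. The ratio was 2 or more at 15 of 17 grid positions in Cell18, 12 of 12 in Cell19, 11 of 12 in Cell20 and 10 of 11 in Cell38. The exceptions were the positions 9 (1.72) and 12 (1.87) of Cell18, position 1 of Cell20 (1.33) and position 10 of Cell38 (1.85). Cell18 and Cell38 have 1 grid position more than their 16 and 10 profiles, so positions do not all stand for 1 slice each. No position of a balanced nucleus reached 2, and the highest were 1.52 in Cell25 and 1.43 in Cell17. The excess of file 1 was thus spread over the positions of the lopsided nuclei and not held by a few of them.

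**Figure D3:**
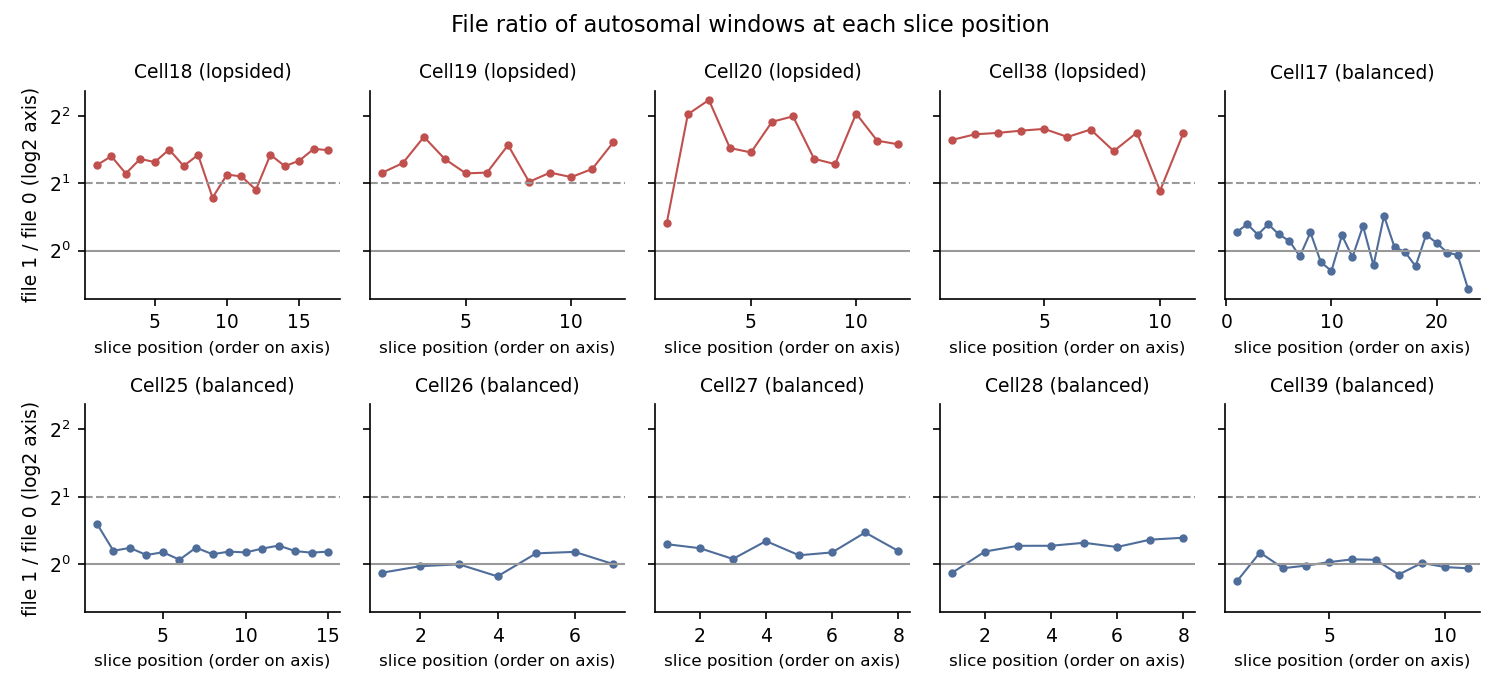
Ratio of file 1 to file 0 autosomal windows (log2 axis) at each grid position of the slicing axis, in order along the axis, with 1 panel per nucleus and lines at 1 and 2. In the 4 lopsided nuclei all but 4 positions lie at or above 2, and in the 6 balanced nuclei no position lies above 1.52.

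Windows that fell between the grid positions took a larger share of file 1 than of file 0 in all 4 lopsided nuclei. Their share of the autosomal windows of file 0 and file 1 was 20.96% and 25.1% in Cell18, 15.9% and 28.5% in Cell19, 18.4% and 30.3% in Cell20, and 33.5% and 38.1% in Cell38. The difference, file 1 minus file 0, was 4.14, 12.6, 11.9 and 4.58 percentage points in these nuclei. It was −2.08 in Cell17, 2.63 in Cell25, −0.120 in Cell26, 0.985 in Cell27, 1.89 in Cell28 and 0.446 in Cell39. Every lopsided nucleus lay above every balanced one, with means of 8.32 ± 4.58 (SD, n = 4) and 0.627 ± 1.65 (SD, n = 6). The groups differed by 7.69 points (two-sided exact permutation test over nuclei, p = 0.00952, the smallest that 210 arrangements can give), but after Benjamini-Hochberg adjustment over the 6 results tested the exact permutation p was 0.0571. The difference was 11.6 points within batch B16F and 3.41 points within B18F. With batch as a stratum the difference was 7.52 points and p was 0.0833, the smallest that 24 arrangements allow in an exact permutation test. The size of file 0 moved with the groups, and its part in this difference was not tested.

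The same contrast was larger in the windows listed in both files, where 1 locus has a position in each. There the difference was 5.01 points in Cell18, 19.002 in Cell19, 21.7 in Cell20 and 7.07 in Cell38, and it lay between −7.81 (Cell17) and 3.10 (Cell25) in the balanced nuclei. In Cell19, 4391 such windows were on the grid in file 0 alone and 1248 in file 1 alone, a ratio of 3.52. The ratio was 3.06 in Cell20, 1.42 in Cell18 and 1.30 in Cell38. The balanced nuclei ran from 0.656 in Cell17 to 1.21 in Cell39, so the 4 lopsided nuclei stood above them, Cell38 by a small margin. These windows were looked at separately after the main result was known.

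Agreement of positions was then compared between the files. Windows listed in both files numbered 10587 in Cell18, 16540 in Cell19, 11997 in Cell20 and 8285 in Cell38, and from 5662 (Cell39) to 45126 (Cell25) in the balanced nuclei. These were 1.57, 1.81, 2.44 and 1.32 times the count given by chance for independent files in the lopsided nuclei, and 1.26 (Cell17) to 1.97 (Cell39) times in the balanced ones. The chance count takes all 240347 autosomal windows as equally likely to be located, and uneven coverage along the genome was not taken into account. Positions identical within 1e-06 axis units made up 60.3% of the shared windows of Cell18, 54.8% of Cell19, 42.3% of Cell20 and 13.04% of Cell38. The balanced nuclei had 46.3% (Cell17), 50.6% (Cell25), 60.5% (Cell26), 58.4% (Cell27), 38.6% (Cell28) and 66.8% (Cell39). The groups overlapped apart from Cell38, which lay under all others.

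The share given by chance, from the frequency of each position among the shared windows of each file, was 8.07% ± 1.41 (SD, n = 4) in the lopsided nuclei and 15.3% ± 9.83 (SD, n = 6) in the balanced ones, where it ran from 5.11% in Cell17 to 30.5% in Cell39. The observed means were 42.6% ± 21.1 (SD, n = 4) in the lopsided and 53.5% ± 10.3 (SD, n = 6) in the balanced nuclei, a difference of −10.9 points that did not pass (exact permutation p = 0.362, adjusted p = 0.543). Without Cell38 the difference was −1.05 points. By autosome the lopsided mean was lower on 19 of 19, from −16.7 points on chromosome 19 and −15.5 on chromosome 18 to −6.28 on chromosome 1 and −1.87 on chromosome 13, and 0 of 19 autosomes passed (0% called at an adjusted p under 0.05 by the exact permutation test in each direction, 0 at an unadjusted p under 0.05, lowest adjusted p = 0.573). Without Cell38 the mean was lower on 13 autosomes and higher on 6. Within Cell38 the share was low on every autosome, from 6.98% to 20.1%. Of its shared windows, 28.7% were on the grid in both files and 44.3% of those had identical positions, whereas the lowest values among the other 9 nuclei were 45.5% (Cell28) and 81.2% (Cell20).

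As deposited, the files of 3 of the 4 lopsided nuclei agreed less on the position of a megabase than those of any balanced nucleus. For each nucleus the mean difference in position of an autosomal 1 Mb bin in file 0 and in file 1 was divided by the mean distance between bins of different autosomes across the files. A log2 ratio of 0 means that a megabase was no closer to itself in the other file than to other chromosomes. The log2 ratio was −0.25 in Cell18, −0.64 in Cell19, −0.08 in Cell20 and −0.17 in Cell38. It was −0.63 in Cell17, −0.99 in Cell25, −0.83 in Cell26, −0.86 in Cell27, −0.85 in Cell28 and −0.98 in Cell39. Cell18, Cell20 and Cell38 lay above all balanced nuclei, and Cell19 lay beside Cell17, so the groups overlapped by that pair.

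In ratios, the same megabase was 0.8294 ± 0.132 times as far apart as different autosomes in the lopsided nuclei (SD, n = 4) and 0.555 ± 0.052 times in the balanced nuclei (SD, n = 6). On the log2 scale the means were −0.28 ± 0.25 (SD, n = 4) and −0.85 ± 0.13 (SD, n = 6), and the difference was 0.57 (exact permutation p = 0.019, adjusted over the 6 results p = 0.0571). It was 0.30 within batch B16F and 0.73 within B18F, and 0.52 with batch as a stratum (exact permutation p = 0.167). A bin of file 0 held a median of 7 to 10 windows in the lopsided nuclei and 20 to 28.5 in 5 of the balanced nuclei. In the balanced Cell39 the median was 8 windows in each file. File size, on which the nuclei were selected, thus moved with bin filling, and settings that change the filling are given below. Windows listed in both files made up 17.3% ± 4.22 of file 1 in the lopsided nuclei (SD, n = 4) and 38.1% ± 9.45 in the balanced nuclei (SD, n = 6). Of file 0 they made up 50.4% ± 11.5 (SD, n = 4) and 41.7% ± 12.2 (SD, n = 6). The separate parts of bin filling and shared windows in the difference were not tested.

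The size of this difference moved with the setting. With only the larger file of each nucleus thinned to the smaller, it was 0.5995 (exact permutation p = 0.00952). With every file thinned evenly to 19667 windows, the difference was 0.32 (exact permutation p = 0.0381), with −0.17, −0.45, −0.07 and −0.12 in Cell18, Cell19, Cell20 and Cell38 and −0.90 (Cell39) to −0.35 (Cell17) in the balanced nuclei. Leaving out the windows listed in both files gave 0.26 (exact permutation p = 0.0286). With exactly 1 window per bin and file it was 0.12 (exact permutation p = 0.133), and for neighbouring 10 kb windows listed in different files it was 0.10 (exact permutation p = 0.390). Those last 2 settings were added after the result was seen, and under them the difference did not pass. With 1 window per bin the SDs were 0.09 (n = 4) and 0.12 (n = 6), and for neighbouring windows 0.21 and 0.15.

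By autosome in the files as deposited, the lopsided mean of the log2 ratio was higher on 19 of 19. Of these, 17 of 19 (89.5%) passed at an adjusted p under 0.05 in the exact permutation test. The groups did not overlap on 7 of them. The largest differences were 0.79 on chromosome 15 and 0.77 on chromosome 12, and the smallest were 0.19 on chromosome 18 and 0.44 on chromosome 16. The autosomes that did not pass were chromosome 18 (adjusted p = 0.40, exact permutation test) and chromosome 7 (difference 0.51, adjusted p = 0.0704, exact permutation test). On chromosome 15 the log2 ratio was −0.04 in Cell18, −0.65 in Cell19, −0.12 in Cell20 and −0.23 in Cell38, and it was −0.85 (Cell17) or lower in the balanced nuclei. On chromosome 18 Cell18 had −1.09, the lowest of all 10 nuclei, and Cell19 had −0.77, while Cell20 (−0.31) and Cell38 (−0.23) stayed high. Chromosome 18 was also the best covered chromosome in both files of Cell18.

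Autosomes of a nucleus share its slices and are not independent, and the 17 calls repeat 1 contrast between the same 10 nuclei. The number called was 0 with all files thinned to one size, 0 with the shared windows left out, and 0 without Cell18, without Cell20 or without Cell38. It was 7 without Cell25 or without Cell39 and 13 to 16 without each of the others. The direction stayed the same on all 19 autosomes in each of these settings.

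**Figure D4:**
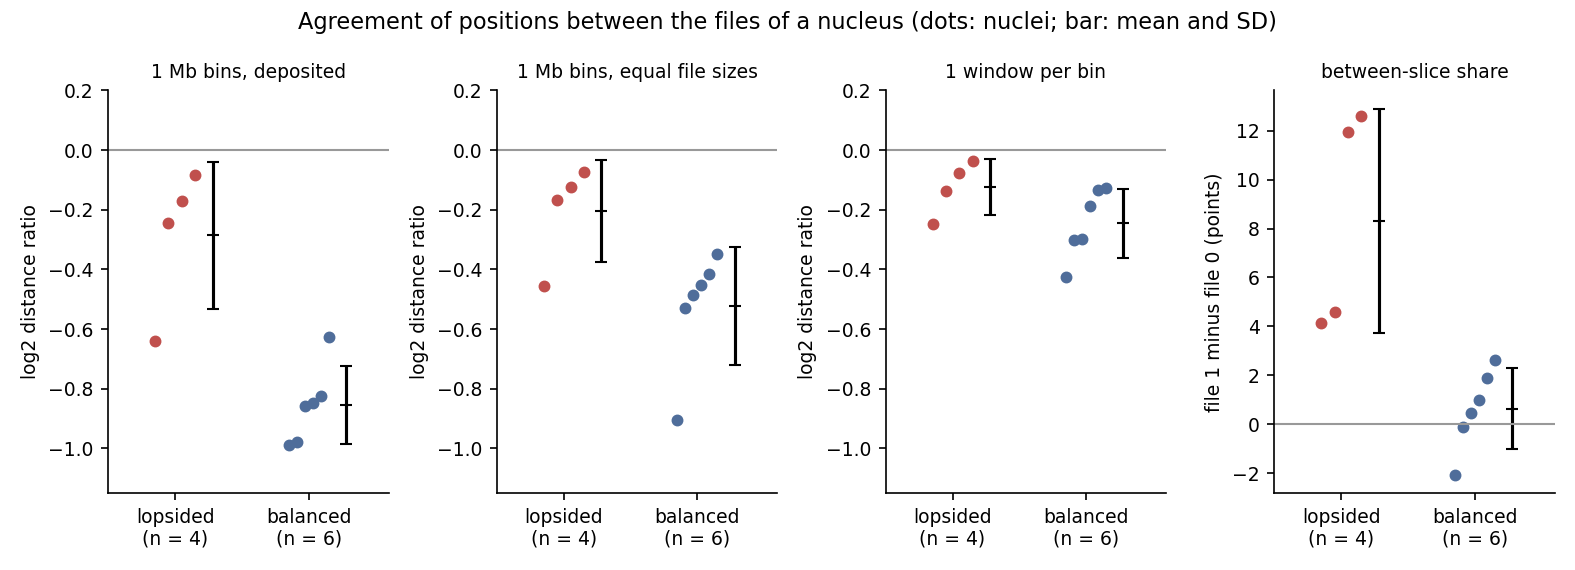
Per-nucleus values (dots) with the mean and SD beside them for lopsided (n = 4) and balanced (n = 6) nuclei, as the log2 ratio of same-bin to different-autosome distance in 1 Mb bins as deposited, with all files thinned to equal size and with 1 window per bin, and as the between-slice share of file 1 minus file 0 in percentage points. The group difference shrinks from 0.57 to 0.32 and 0.12 over the first 3 panels, and the groups are apart in the last.

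The order of whole chromosomes along the axis did not differ detectably between the groups. The Spearman correlation of the 19 autosomes' mean positions between the files, without shared windows, was 0.64 in Cell18, 0.63 in Cell19, 0.52 in Cell20 and 0.55 in Cell38. It was 0.63 in Cell17, −0.05 in Cell25, 0.38 in Cell26, 0.46 in Cell27, 0.59 in Cell28 and 0.91 in Cell39. The lopsided values all lay inside the balanced range, with means of 0.58 ± 0.06 (SD, n = 4) and 0.49 ± 0.32 (SD, n = 6) and an exact permutation p = 0.619 (adjusted p = 0.724). The sign of this small difference turned with several settings.

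Block lengths were measured along the autosomes by joining consecutive windows listed in the same single file. As deposited, the median block length weighted by windows was 570 kb in file 0 and 2560 kb in file 1 of Cell18. The corresponding lengths were 40 and 590 kb in Cell19, 60 and 940 kb in Cell20, and 140 and 1070 kb in Cell38. The files of the balanced nuclei were closer, with 450 and 760 kb in Cell17, 190 and 290 kb in Cell25, 840 and 860 kb in Cell26, 70 and 100 kb in Cell27, 110 and 170 kb in Cell28, and 230 kb in both files of Cell39. File size, on which the nuclei were selected, enters these lengths, so they are given as a description.

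With all files thinned to the same number of windows, block lengths of the groups overlapped. The weighted median over both files was 620 kb in Cell18, 100 kb in Cell19, 150 kb in Cell20 and 260 kb in Cell38. Among the balanced nuclei it was 230 kb in Cell17, 70 kb in Cell25, 210 kb in Cell26, 50 kb in Cell27, 60 kb in Cell28 and 200 kb in Cell39. Cell18 and Cell38 lay above all balanced nuclei, and Cell19 and Cell20 lay among them. The log2 lengths in kb averaged 7.79 ± 1.14 (SD, n = 4) and 6.81 ± 1.02 (SD, n = 6), a difference of 0.98 that did not pass (exact permutation p = 0.181, adjusted p = 0.362). Within B16F the difference was −0.13 and within B18F it was 1.41.

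By autosome, blocks of equal-sized files were longer in the lopsided mean on 19 of 19, and again 0 of 19 passed (0% called in each direction by the exact permutation test, 0 at an unadjusted p under 0.05, lowest adjusted p = 0.431). The largest log2 differences were 1.52 on chromosome 12 and 1.51 on chromosome 1, and the smallest were 0.26 on chromosome 2 and 0.30 on chromosome 3. Cell18 had a weighted median from 240 to 1070 kb over its autosomes and Cell19 from 60 to 170 kb, so lopsided nuclei of 1 batch differed from each other more than the groups did.

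**Figure D5:**
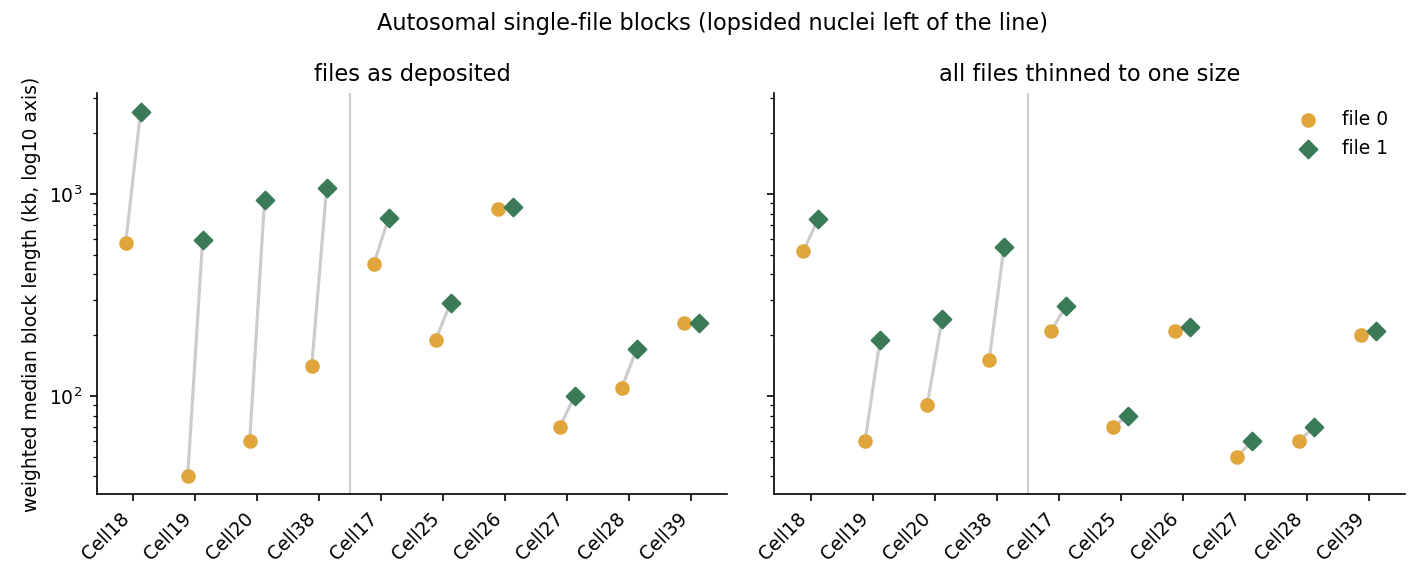
Window-weighted median length in kb (log10 axis) of autosomal blocks of single-file windows in file 0 (circles) and file 1 (diamonds) of each nucleus, as deposited (left) and with all files thinned to 19667 windows (right). The gap between the files of lopsided nuclei narrows with equal sizes, and Cell18 and Cell38 keep the longest file 1 blocks at 750 and 550 kb.

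Equal sizes did not remove the difference between the files inside the lopsided nuclei. After thinning, file 0 and file 1 had 520 and 750 kb in Cell18, 60 and 190 kb in Cell19, 90 and 240 kb in Cell20, and 150 and 550 kb in Cell38. In the balanced nuclei the 2 files were within 10 kb of each other except in Cell17, at 210 and 280 kb. File 1 blocks of Cell19 were thus longer at the same number of windows, although the size of the file from which the windows were thinned still differed, and its part was not tested.

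The longest file 1 blocks of Cell18, Cell20 and Cell38 spanned whole gene neighbourhoods, as did those of some balanced nuclei. In Cell38 the longest ran over chr1:181360001-195380000 (mm10), 14.02 Mb with 473 single-file windows. It spans 86 protein-coding genes from Ccdc121 to Cr2, among them Lbr, which encodes the lamin B receptor of the inner nuclear membrane, and Prox1, a homeobox transcription factor. In Cell18 it ran over chr13:98670001-112540000, 13.87 Mb with 72 genes from Tmem171 to Il6st, the latter encoding the gp130 receptor subunit through which LIF signals. In Cell20 it covered chr1:161240001-167610000, 6.37 Mb with 64 genes from Prdx6 to Lrrc52. The longest file 1 block of the balanced Cell17, chr1:160510001-168380000 with 75 genes, contained the whole Cell20 block. That of the balanced Cell26 overlapped the Cell20 block, and those of the balanced Cell25, Cell27 and Cell28 lay inside the Cell38 block. Positions are those of the first and last single-file window. Between 24.3% and 35.0% of the windows inside the blocks of Cell18, Cell20 and Cell38 were located in either file.

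File size, on which the nuclei were selected, also enters the longest blocks, which are those of the files as deposited. File 0 had much shorter longest blocks than file 1 in Cell18, Cell20 and Cell38. In Cell18 it was chr7:115470001-119250000, 3.78 Mb with 24 genes from Sox6 to Gpr139, and in Cell38 chr1:173030001-175990000, 2.96 Mb with 47 genes from Olfr1408 to Becn2, a stretch of olfactory receptor and interferon-inducible Ifi200 genes. In Cell20 it was chr1:184430001-185790000, 1.36 Mb with 10 genes from Hlx to Slc30a10. In the balanced nuclei the longest file 0 block ran from 0.87 Mb (Cell27, chr7:142460001-143330000, from Tnnt3 to Trpm5 and including Igf2, an imprinted growth factor gene) to 6.24 Mb (Cell26, chr4:66050001-72290000, from Tlr4 to Tle1). Their longest file 1 block ran from 2.09 Mb (Cell28) to 7.87 Mb (Cell17).

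Beyond 160 Mb, on chromosomes 1 and 2, blocks were longer in most nuclei of both groups than in the first 40 Mb of all autosomes. The longest file 1 block lay on chromosome 1 in 8 of 10 nuclei, 2 lopsided and 6 balanced, always beyond 156.9 Mb, although chromosome 1 makes up 8.004% of the autosomal windows. In the deposited files the weighted median length beyond 160 Mb, a stretch with located windows on chromosomes 1 and 2 alone, was 3930 kb in Cell18, 3290 kb in Cell19, 3430 kb in Cell20 and 4490 kb in Cell38. Within the first 40 Mb of all autosomes it was 1140, 410, 430 and 880 kb in the same nuclei. The length beyond 160 Mb was thus 3.45 to 8.02 times that of the first 40 Mb in files as deposited. With equal-sized files the fold was 1.09 to 3.21 in these 4 nuclei, the lowest in Cell18 at 620 against 570 kb. Balanced Cell17 had 660 kb in both stretches, and Cell39 had the largest fold of that group, 10.1. Over both groups, 8 of 10 nuclei had longer blocks beyond 160 Mb with equal-sized files, and Cell17 and Cell25 did not. This was noticed in the data and is a description, with few blocks (54 to 100 in the lopsided nuclei) behind the far values. The 2 stretches were not compared within the same chromosomes, so distance and chromosome cannot be told apart here.

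Genes followed the file sizes of their nuclei. Among autosomal protein-coding genes touched by windows of 1 file alone, file 1 held 83.6% in Cell18, 87.6% in Cell19, 88.7% in Cell20 and 87.0% in Cell38, and 55.8% ± 4.52 (SD, n = 6) in the balanced nuclei. The share of single-file windows that overlap a protein-coding gene hardly differed between the files. File 1 minus file 0 was 3.54 points in Cell18, −0.354 in Cell19, 0.236 in Cell20 and 1.54 in Cell38. It was 2.25 in Cell17, 0.00876 in Cell25, 3.27 in Cell26, 0.857 in Cell27, −0.632 in Cell28 and −0.469 in Cell39. The groups overlapped, with means of 1.24 ± 1.73 (SD, n = 4) and 0.880 ± 1.58 (SD, n = 6) and an exact permutation p = 0.724 (adjusted p = 0.724).

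The core pluripotency genes of embryonic stem cells were counted gene by gene. Pou5f1, Nanog, Sox2, Klf4, Esrrb and Zfp42 encode transcription factors of pluripotent cells. In the 4 lopsided nuclei they were found in 1 file alone 12 times, 11 of them in file 1, and in both files 3 times. In the 6 balanced nuclei they were in 1 file alone 10 times, 4 of them in file 1 (40%, beside 55.96% over all protein-coding genes), and in both files 14 times. Over all protein-coding genes, 20.2% ± 4.84 (SD, n = 4) were in both files of a lopsided nucleus and 34.7% ± 12.2 (SD, n = 6) in both files of a balanced one. Nanog (chr6:122707489-122714633) was in file 1 alone in 3 lopsided nuclei and was not located in Cell19. Esrrb (chr12:86361117-86521628), the longest of the 6, was in file 1 alone in 3 lopsided nuclei and in both files of 1, and it was in both files of all 6 balanced nuclei. The only lopsided case in file 0 alone was Pou5f1 (chr17:35506032-35510777) in Cell18. Sox2 and Zfp42 were each located in 1 of the 4 lopsided nuclei, in file 1. The share of 91.7% in file 1 stood beside 86.6% of all single-file gene locations in those nuclei.

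In the lopsided nuclei gene families gave similar shares, with 1 nucleus apart. The 80 ribosomal protein genes had 83 of 99 single-file locations in file 1 of the lopsided nuclei (83.8%), and the 1100 olfactory receptor genes had 967 of 1169 (82.7%). The 39 Hox genes, which lie in a few clusters and so share blocks, had 90.5% in Cell18, 95.5% in Cell19 and 94.7% in Cell20, but in Cell38 12 were in file 0 alone and 12 in file 1 alone. File 1 of the balanced nuclei held 15.4% (Cell39) to 64.0% (Cell28) of the single-file Hox locations. The lists were described by their counts and not tested.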

How the data were processed

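Nuclei were 10 F123 embryonic stem cell nuclei cut into 122 profiles, with whole genome amplification of each profile and Illumina HiSeq X sequencing (per the labels' protocols). Bowtie2 2.3.5, Trim Galore 0.6.4, Picard and the mm10 build are named, without roles, per the submitters' processing notes. How reads became positions and what the file numbers mean is not given in the sources used here. The deposited value is a position along the slicing axis, another unit than a count, per the file headers. All 20 files were used, and no 2 files held the same windows.

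The nuclei and the gene lists were chosen with earlier results of these data known. Blocks join consecutive windows listed in 1 file only, ignoring windows of both files. Thinning kept evenly spaced rows down to 19667, the smallest autosomal file. Each nucleus gave 1 value to two-sided exact permutation tests over 210 arrangements (24 within batches), adjusted by the Benjamini-Hochberg method over 6 results or over 19 autosomes, at 0.05. Located windows stand for depth and limit the precision of a position. Coverage is over 240347 autosomal windows from the first to the last located. Genes came from the RefSeq table of GRCm38.p6 (20661 autosomal protein-coding genes). The genes named were 6 pluripotency genes, those at the ends of the longest block of each file and examples inside them chosen after the blocks were seen. The longest blocks of Cell19 are not reported here. The chromosomes named were those of highest and lowest file ratio per nucleus and, for tests, those called or with the 2 largest and 2 smallest differences. Alternatives were other bin sizes (250 kb), at least 5 windows per bin, medians, other tolerances, thinning, shared windows left out, X added, each batch alone and each nucleus left out. Computations used Python 3.11.15 with numpy 2.4.6, pandas 2.3.3 and scipy 1.17.1 and were tested on simulated data.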

Additional observations from a re-analysis of the deposited data

Results flagged for a closer look

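The between-slice share, file 1 minus file 0, differed between lopsided and balanced nuclei by 7.69 percentage points (exact permutation p = 0.00952 before adjustment, higher in 4 of 4 lopsided nuclei than in any balanced one), which did not pass after adjustment over 6 results (p = 0.0571 from the exact permutation test).

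The files also list windows outside the 21 chromosomes, which entered no comparison. There were 2789 such windows on unplaced contigs and the mitochondrial genome, from 206 to 440 in a nucleus, and in 10 of 10 nuclei they stood in 1 file only. They were in file 1 in Cell17, Cell18, Cell26 and Cell38 and in file 0 in the other 6, so 2 of 4 lopsided nuclei had them in their smaller file. The mitochondrial genome gave 2 windows in each nucleus.

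Of 28 groups of values examined for a nucleus far from the others of its group, 0 had one. The rule compared the gap to the nearest nucleus with the range of the group, and with so few nuclei only a very large gap passes it. Cell38, which lay under all others in identical positions, was not flagged.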

How the results depend on the processing

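The difference in the agreement of 1 Mb bins (0.57) kept its direction in all alternatives run. It missed an exact permutation p of 0.05 with neighbouring windows of different files (0.10), with 1 window per bin (0.12) and with 1 window per bin and shared windows left out (0.068, exact permutation p = 0.257), it was 0.30 in B16F alone, and it lay between 0.50 and 0.69 with each nucleus left out. The between-slice difference (7.69) was 11.6 in B16F alone, 3.41 in B18F alone and 6.26 to 9.08 with each nucleus left out, and was 4.93 with shared windows left out. The difference in identical positions was 6.20 in B16F alone and −41.9 in B18F alone, and −16.8 to −1.05 with each nucleus left out. Block length of equal-sized files differed by −0.13 in B16F alone and by 0.48 to 1.36 with each nucleus left out. It was 0.02 when only the larger file of each nucleus was thinned to its smaller one, and 1.75 as deposited, where file size enters it.

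The difference in chromosome order (0.10) turned to −0.0066 with shared windows kept, to −0.0132 with median positions, to −0.0817 with all files thinned and to −0.0098 without Cell25 (up to 0.18 without Cell39). The gene content difference (0.36) ran from −0.405 without Cell18 to 0.895 without Cell19, and was −1.11 in B16F alone, 0.938 in B18F alone and −0.0839 with batch as a stratum. The 17 autosomes called for bin agreement became 0 with all files thinned and 0 with shared windows left out, settings added after the data were seen, and 0 to 16 with each nucleus left out. The cause of these changes was not tested. Batch as a stratum was not run by autosome, since no exact p under 0.0833 was possible. No paired analysis was possible because numbers of profiles are in accession order and nuclei of the groups share none. Window positions carry no read counts, 4 nuclei against 6 limit every test, and 3 of 4 lopsided nuclei belong to 1 batch, so batch and group are only partly separable.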
